A study of Mus musculus with 35 samples.

Results

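The pancreatic lymph node of 16-week-old NOD mice was compared with the same node of NOD.B10 mice on 6 of the 35 arrays of the study, those whose titles name this age. On each array RNA from the node of female NOD/LtJ mice carried Cy3, and RNA from the node of female NOD.B10Sn-H2b/J mice carried Cy5. NOD mice develop autoimmune diabetes spontaneously, and NOD.B10Sn-H2b/J is a congenic strain that carries the H2b haplotype of the major histocompatibility complex (MHC), on chromosome 17, on the NOD background. The labels give the disease state of the NOD RNA as diabetic and that of the NOD.B10 RNA as control. No treatment, transgene or further allele is named for either strain. The control material came from 2 pools of 10 mice, aged 10 days and 20 weeks, and no label assigns either pool to an array. No pool was 16 weeks old, so strain, age of the control and any dye bias cannot be told apart in a ratio: the dyes were never exchanged. The control counts as 1 sample, and its own spread between mice is not in the errors given here. Nothing in the labels says that the 6 NOD samples came from separate animals, so p-values measure a spread between arrays. That spread was pooled within the age groups over all 35 arrays, and can be smaller or larger than that of these 6. The arrays of NOD mice at 12 weeks (7 arrays) and 20 weeks (5 arrays) serve below to show where the 16-week node stands apart.

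The pancreatic lymph node drains the pancreas, and in NOD mice it is the place where T cells specific for islet antigens first meet them on dendritic cells. Its stroma (fibroblastic reticular cells, lymphatic endothelium and high endothelial venules) brings lymphocytes together, and some stromal cells transcribe genes of other organs under regulators such as Aire and Deaf1. Pancreas tissue lies next to the node, and its secretory genes are among the most abundant transcripts of the body.

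The value followed is the log2 ratio of NOD over NOD.B10 for each gene, taken at its brightest probe. A ratio of 1 is a doubling in NOD and a ratio of -1 a halving. Means are given with the standard error (SE) of a limma fit to all 35 arrays, and n is 6 arrays unless stated. A gene is called higher or lower at a Benjamini-Hochberg adjusted p under 0.05 over all 28336 genes tested. A signal is well above background by the scanner software's own flag. The NOD signal was well above background for 42.1% to 82.9% of spots on an array and the control signal for 38.0% to 79.3%. Negative control spots in the NOD channel read 128 and 144 raw units on replicates 1 and 6, against 58.8 to 87.4 on the other 4 arrays. Replicate 2 had 3.35% of its spots flagged as outliers, which were left out, against 0.0458% to 0.195% on the others. Over the 10195 genes with both channels well above background and unsaturated on all 6 arrays, called measured genes below, pairs of arrays correlated between 0.629 and 0.904, and over all probes between 0.240 and 0.694. Replicates 1 and 2 were read on 1 scanner, replicate 3 on another and replicates 4 to 6 on a further one, on the same scan day.

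The RNA carried the transcripts of a lymph node. The T cell receptor subunit Cd3d, the B cell receptor subunit Cd79a, the homing receptor Ccr7, the stromal chemokines Ccl19 and Cxcl13, the high endothelial venule gene Glycam1 and the lymphatic endothelial receptor Lyve1 were each well above background on all 6 arrays in both channels.

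Of the genes tested, 4290 (15.1%) were called higher in NOD and 5489 (19.4%) lower. Of the 10195 measured genes 2945 were called higher and 2841 lower, larger shares than over all genes. Counts of calls on the gene lists below are to be read beside these shares. For lists made mostly of measured genes the shares of measured genes apply. Genes past an absolute log2 ratio of 1 as well numbered 653 higher (2.3%) and 1411 lower (4.98%). With another background correction (normexp with loess) 135 and 380 genes were past both limits, and 122 of these 135 and all 380 were among the 653 and the 1411. The median ratio of all genes was -0.08, and 50% lay between -0.39 and 0.23. Of the 1411 lower genes 1217 were below 0 on all 6 arrays, and of the 653 higher genes 588 were above 0 on all 6. Among the 619 of these higher genes with 6 values, 269 (43.5%) were highest on replicate 2, against 28.9% of all genes. The largest ratios in either direction were lower ones, and many of their genes are made in the pancreas. Of the genes past both limits 787 had several probes: another probe was called the same way for 316 and the opposite way for 86, some genes having both, and no other probe was called for 405. Among genes named below, a second probe well above background on 5 or 6 arrays was not called for Calr, Cdc25b, Csnk1d, Fgl2, H2-Ab1, Hspa4l, Il7r, Lmo4, Lpl, Myc and Tra2b.

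Genes of the pancreatic acinar cell, which makes digestive enzymes, were lower in the NOD node. Of 34 members tested 28 were called lower and 0 higher (at an unadjusted p under 0.05 limma gave 32 lower and 0 higher), each of the 28 past the 2-fold limit, with a median ratio of -3.42. In bulk RNA fewer cells of a type and less RNA per cell cannot be told apart. The control signal of many enzyme genes was saturated, so their ratios are lower limits: the serine protease gene Klk1b5 was at least 30.3-fold lower, the lithostathine gene Reg1 at least 22.4-fold, the trypsinogen-like 2210010C04Rik at least 14.1-fold, the lipase-related Pnliprp1 at least 12.9-fold, pancreatic lipase Pnlip at least 11.1-fold and amylase Amy1 at least 10.9-fold (adjusted p = 0.0005, 0.012, 0.013, 0.02, 0.032 and 0.036). These bounds set the mean control signal over the 6 arrays, with saturated spots at their value, against the mean NOD signal. They hold for the means and not for every array. On replicate 5 the NOD signal of 2210010C04Rik, Pnliprp1, Pnlip and Amy1 read above that of the saturated control. Amy1 lay between -10.11 on replicate 1 and 0.94 on replicate 5 (median -2.83).

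Many acinar enzyme genes are switched on together by PTF1, a complex of Ptf1a and Rbpjl that binds an E-box (CACCTG) beside a second box (TTTCCC). Promoters are shown for 3 enzyme genes of the list to let a reader see these letters beside genes whose ratios moved together: the elastase gene Cela1, the carboxyl ester lipase gene Cel and the trypsinogen gene Prss2. Each line gives the 180 bases before the annotated start in RefSeq (build GRCm38.p6), 5′ to 3′ on the gene's strand, with both motifs in capitals on either strand.
Cela1: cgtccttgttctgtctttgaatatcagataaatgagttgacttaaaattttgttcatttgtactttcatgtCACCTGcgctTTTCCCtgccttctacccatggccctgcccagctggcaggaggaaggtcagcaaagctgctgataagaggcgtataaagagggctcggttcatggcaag
Cel: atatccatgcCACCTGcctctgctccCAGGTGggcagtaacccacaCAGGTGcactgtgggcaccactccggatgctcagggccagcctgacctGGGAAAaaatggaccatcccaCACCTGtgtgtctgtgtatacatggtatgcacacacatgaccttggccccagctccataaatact
Prss2: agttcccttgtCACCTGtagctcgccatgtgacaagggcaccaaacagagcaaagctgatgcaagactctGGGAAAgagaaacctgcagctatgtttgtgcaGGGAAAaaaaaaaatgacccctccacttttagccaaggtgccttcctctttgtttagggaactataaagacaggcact
These windows are chr15:100687921-100688100 on the minus strand, chr2:28563404-28563583 on the minus strand and chr6:41521596-41521775 on the plus strand. CACCTG or its reverse complement CAGGTG stood in the 250 bases before the start of 15 of the 26 acinar genes with a promoter in that table (57.7%), against 17.2% of all 32851 promoters. TTTCCC or GGGAAA stood in 8 of the 26 (30.8%), against 21.9%. A gene of the list counted if any of its promoters held the motif, while the share of all promoters is per promoter, so the units differ. The capitals of the motifs do not overlap in the lines shown, and a match of letters is a description and no binding site. Cela1 lay between -9.29 and 0.03 (median -3.86), mean -4.21 ± 1.16, adjusted p = 0.0047, with the control saturated on 4 arrays. Cel lay between -7.29 and -2.07 (median -3.25) on the 5 arrays without an outlier flag (adjusted p = 0.0068), replicate 5 being left out, and its control was saturated on all 5, so that these values only limit how low it was. Prss2 lay between -7.19 and 0.97 (median -2.86), at least 7.4-fold lower (adjusted p = 0.014), with the control saturated on all 6. All 3 were lowest on replicate 1, and Cela1 and Prss2 were above 0 on replicate 5.

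The acinar genes that stayed within the range of the scanner showed the same order of arrays. Gp2, the main membrane protein of zymogen granules, lay between -8.63 and -0.35 (median -4.14), mean -4.33 ± 0.98, adjusted p = 0.00064. The lipase-related Pnliprp2 lay between -7.77 and -0.46 (median -4.38), mean -4.34 ± 1.11, adjusted p = 0.0023. The trypsin inhibitor Spink1 lay between -9.65 and -0.55 (median -4.17), mean -4.53 ± 1.35, adjusted p = 0.0084. The scavenger receptor family gene Dmbt1 lay between -8.24 and -0.90 (median -4.45), mean -4.56 ± 1.12, adjusted p = 0.0015. All 4 were below 0 on all 6 arrays, lowest on replicate 1 and closest to 0 on replicate 5. The transcription factors of the acinar programme followed: Rbpjl lay between -6.61 and -0.02 (median -3.21), mean -3.29 ± 0.67, adjusted p = 0.00021. Ptf1a lay between -3.92 and -0.72 (median -2.88), mean -2.75 ± 0.51, adjusted p = 5.9e-05, with the NOD signal well above background on 4 arrays. Bhlha15 (Mist1), which controls secretory granule organisation, lay between -4.05 and -0.56 (median -3.17), mean -2.94 ± 0.52, adjusted p = 3e-05. The second probe of Bhlha15 had a mean of -0.59. At the brightest probes replicate 5 was again the array nearest to 0 for all 3 factors.

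The arrays differed in how much acinar RNA the NOD channel held. The mean ratio over the 34 acinar genes was -7.59 on replicate 1, -4.05 on replicate 2, -3.07 on replicate 3, -4.42 on replicate 4, -0.33 on replicate 5 and -2.87 on replicate 6. Replicate 1 was far below the other arrays and replicate 5 close to equality with the control. The mean log2 signal of the same genes in the NOD channel was 10.48, 13.45, 14.46, 12.97, 16.71 and 14.53 on replicates 1 to 6, whereas in the control channel it stayed between 17.04 and 18.07. The SD between arrays was 2.06 in the NOD channel and 0.334 in the control channel, where saturation limits it. Over the 13 acinar genes with no saturated spot the NOD channel lay between 8.55 and 13.15 (SD 1.55) and the control channel between 14.34 and 14.73 (SD 0.153). Of the 30 acinar genes with a value on all 6 arrays, 24 were lowest on replicate 1 and highest on replicate 5 (80.0%), against 2.84% of all genes with 6 values. Among all 1368 genes lower past the 2-fold limit with 6 values, 579 (42.3%) were highest on replicate 5, against 12.6% of all genes. Without replicate 5 the list had 31 genes called lower and a median of -4.25, and without replicate 1 it had 17. Within replicates 4 to 6, read on 1 scanner, 7 were called lower, and within replicates 1 and 2 it was 33. Such fits took their spread from every array of the scanner, at all ages. The scanner of replicates 1 and 2 also read 7 arrays at 10 days, 3 at 8 weeks, 1 at 12 weeks and 4 at 20 weeks. That of replicates 4 to 6 also read 3 at 12 weeks and 1 at 20 weeks, so counts of these fits cannot be compared directly.

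**Figure D1:**
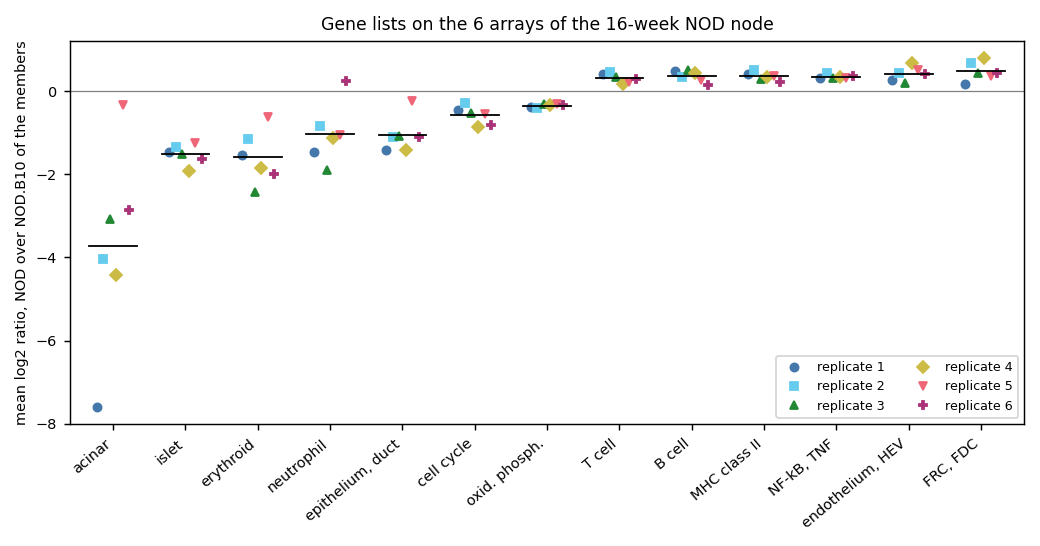
Mean log2 ratio (NOD over NOD.B10) of the members of 13 gene lists on each of the 6 arrays at 16 weeks; each symbol is 1 array and each bar the mean of the 6 arrays. The acinar genes spread from -7.59 on replicate 1 to -0.33 on replicate 5, while the oxidative phosphorylation, T cell and NF-kB lists lie close together on all arrays.

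The regenerating (Reg) genes, small secreted lectins that acinar cells raise in inflammation, differed from one another on replicate 5. Reg3a lay between -8.56 and -5.53 (median -6.84), mean -6.81 ± 0.88, adjusted p = 1.9e-07, with the NOD signal well above background on 4 arrays. Reg3b lay between -9.46 and -5.35 (median -7.32), mean -7.25 ± 1.15, adjusted p = 7e-06. Reg2 lay between -13.01 and -5.96 (median -9.29), adjusted p = 4.3e-07, with the control saturated on all 6, so that these values only limit how low it was. On replicate 5, where Gp2 was at -0.35, Reg3a was at -5.95 and Reg3b at -5.80, whereas Reg1, whose control was saturated, was at -0.37. Reg3d, a related gene, lay between -6.15 and -1.57 (median -4.64) (mean -4.41 ± 0.93, adjusted p = 0.0003) and had its highest value on replicate 5, as Gp2 did. In the control channel the log2 signal of Reg3a was 14.79 ± 0.24 (SD) at 16 weeks, against 12.40 ± 0.55 on the 7 arrays at 12 weeks and 11.11 ± 0.07 on the 5 arrays at 20 weeks.

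Hormone genes of the islet were lower as well. Of 34 members of the islet list 19 were called lower and 1 higher, with a median of -0.59, which was -0.13 with normexp and loess (again 19 and 1). Ins2, which encodes insulin 2, lay between -7.32 and -2.04 (median -6.84), mean -6.14 ± 0.84, adjusted p = 5.8e-07. Ins1 lay between -6.05 and -1.47 (median -4.91), mean -4.61 ± 0.68, adjusted p = 1.7e-06. Both stood near or below -4.7 on 5 arrays and were much closer to 0 on replicate 5, at -2.04 and -1.47. Glucagon (Gcg) lay between -6.67 and -5.01 (median -5.57), mean -5.75 ± 0.59, adjusted p = 2.6e-09, with the NOD signal well above background on 4 arrays, and stood at -5.01 on replicate 5, close to -5.16 on replicate 2. The other hormone genes were lower on every array: peptide YY (Pyy) lay between -4.23 and -2.77 (median -3.64), mean -3.60 ± 0.43, adjusted p = 3.9e-08. Somatostatin (Sst) lay between -3.68 and -1.87 (median -2.5), mean -2.59 ± 0.33, adjusted p = 2.1e-07. Pancreatic polypeptide (Ppy) lay between -4.37 and -1.76 (median -2.66), mean -2.80 ± 0.42, adjusted p = 2.5e-06. Islet amyloid polypeptide (Iapp) lay between -3.44 and -0.57 (median -2.0), mean -1.89 ± 0.27, adjusted p = 1.2e-06. Sst, Ppy and Iapp were well above background in NOD on 3, 2 and 2 arrays, so their NOD level sat near the floor on the rest.

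Granule genes of endocrine cells moved the same way: chromogranin A (Chga) lay between -5.26 and -2.99 (median -4.33) on the 5 arrays that measured it (mean -4.19 ± 0.57, adjusted p = 6.5e-07), and chromogranin B (Chgb) lay between -5.26 and -3.29 (median -3.94), mean -4.08 ± 0.57, adjusted p = 7.1e-07. The glucose-6-phosphatase subunit G6pc2, an islet autoantigen, lay between -5.26 and -3.07 (median -3.82), mean -3.89 ± 0.48, adjusted p = 8.4e-08. The prohormone convertase Pcsk2 lay between -3.48 and -1.10 (median -1.90), mean -2.13 ± 0.26, adjusted p = 7e-08. The NOD signal of Chga, Chgb and G6pc2 was well above background on 3, 1 and 2 arrays, and the control signal on every array that measured them. The single member called higher, the carboxypeptidase Cpe, lay between 0.23 and 2.25 (median 0.81), mean 0.97 ± 0.18, adjusted p = 3.7e-05; it was named after its value was seen. The islet transcription factors Pdx1 (-0.32), Neurod1 (-0.26) and Mafa (-0.19), and the autoantigen genes Gad2 (-0.03) and Ptprn (-0.17) were not called, and the NOD signal of each was well above background on at most 4 arrays. The mean ratio of the islet list varied little between arrays, from -1.92 on replicate 4 to -1.26 on replicate 5. Only 5 of its 34 genes were measured genes, and its mean NOD log2 signal lay between 7.39 and 8.09. NOD signals near background may thus limit how far this mean can vary, and Ins2 and Ins1 did move on replicate 5. Of 21 genes on a list of islet autoantigens, 11 of them also on the islet list and 2 on the acinar list, 10 were lower, 3 higher (Vamp2, Dmpk and Cpe) and the median was -0.37. The vesicle protein gene Vamp2 lay between 1.08 and 2.09 (median 1.88) (mean 1.75 ± 0.16, adjusted p = 3.9e-10), and the islet cell autoantigen Ica1 lay between -2.33 and -0.70 (median -1.79) (mean -1.61 ± 0.19, adjusted p = 4.3e-08).

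**Figure D2:**
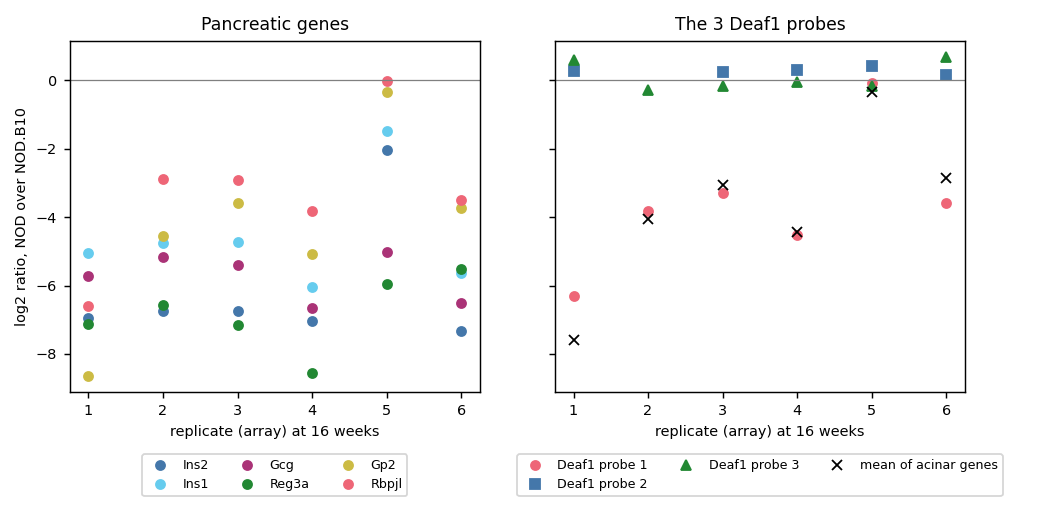
Log2 ratio (NOD over NOD.B10) of 6 pancreatic genes (left) and of the 3 Deaf1 probes with the mean of the acinar genes (right) on each of the 6 arrays at 16 weeks; every point is 1 array. Ins2, Ins1, Gp2 and Rbpjl approach 0 on replicate 5 while Gcg and Reg3a stay below -5, and the brightest Deaf1 probe (probe 1; 3 is the dimmest) falls beside the acinar mean on every array whereas the other Deaf1 probes stay near 0.

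Deaf1, a transcription factor that drives tissue antigens in lymph node stroma, gave a different answer at its brightest probe than at its other 2. At its brightest probe it lay between -6.32 and -0.08 (median -3.71), mean -3.61 ± 0.76, adjusted p = 0.00028, from -6.32 on replicate 1 to -0.08 on replicate 5, the order of the acinar genes. The second probe, well above background on the 5 arrays without an outlier flag, lay between 0.15 and 0.42 (mean 0.28, adjusted p = 0.084 over all probes). The dimmest, well above background in NOD on 2 arrays, lay between -0.30 and 0.69 (mean 0.10, adjusted p = 0.78). The direction for Deaf1 thus depends on the probe, and what the brightest probe detects was not tested.

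Red cell genes were lower in the NOD node: 17 of 20 erythroid genes were called lower and 0 higher (limma, also 17 and 0 at an unadjusted p under 0.05), with a median of -1.58. The Rhesus antigen gene Rhd lay between -5.28 and -2.02 (median -3.55), mean -3.60 ± 0.47, adjusted p = 2.5e-07. The erythroid nuclear protein Hemgn lay between -3.89 and -1.24 (median -2.76), mean -2.65 ± 0.42, adjusted p = 6.5e-06. The membrane skeleton gene Ank1 lay between -4.20 and -1.01 (median -2.64), mean -2.5 ± 0.40, adjusted p = 6.1e-06. These 3 were below 0 on all 6 arrays, lowest on replicate 3 and highest on replicate 5. The anion exchanger Slc4a1 (-2.21), the transcription factor Klf1 (-1.78) and the haem synthesis enzyme Alas2 (-1.70) were lower too (adjusted p = 0.00016, 0.0001 and 0.00017). Alpha globin (Hba-a1), in contrast, lay between -0.61 and 0.84 (median -0.37), mean -0.22 ± 0.33, adjusted p = 0.65. Of the 20 erythroid genes 14 were lowest on replicate 3 and 16 highest on replicate 5. Without a single array 14 to 17 of the list were called lower.

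Neutrophil genes were lower on 5 of the 6 arrays. Of 19 members 10 were called lower and 0 higher (limma, 11 and 0 at an unadjusted p under 0.05), with a median of -0.62. Without replicate 6 the median was -0.96 and 11 were lower, and with normexp and loess it was -0.38. In the scanner fit of replicates 4 to 6, 2 were called lower. The calcium-binding alarmin S100a9 lay between -4.50 and -0.39 (median -2.71), mean -2.67 ± 0.36, adjusted p = 4.7e-07, and its partner S100a8 lay between -4.07 and 0.20 (median -2.34), mean -2.20 ± 0.40, adjusted p = 4.4e-05. The chitinase-like Chil3 lay between -4.85 and -1.64 (median -3.48), mean -3.41 ± 0.41, adjusted p = 5.9e-08. The antimicrobial peptide gene Camp lay between -3.97 and 0.32 (median -1.91), mean -2.03 ± 0.41, adjusted p = 0.00016. Replicate 6 was the highest array for all 4 and stood above 0 for S100a8 and Camp. The precursor enzymes set replicate 6 apart most: myeloperoxidase (Mpo) was at 1.25 there and at -3.82 to -1.06 on the other 5 arrays, and neutrophil elastase (Elane) at 2.82 against -0.71 to -0.11. The list's mean was 0.25 on replicate 6 and between -1.90 and -0.83 on the others.

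Keratins and other epithelial or duct genes were lower (11 of 21, and 0 higher, against 12 and 0 at an unadjusted p under 0.05 with limma, median -0.74). Krt18 lay between -6.32 and -0.96 (median -4.28), mean -4.12 ± 0.82, adjusted p = 0.00014, and its partner Krt8 lay between -4.95 and -0.06 (median -3.05), mean -2.94 ± 0.65, adjusted p = 0.00055, both nearest to 0 on replicate 5. Of 17 liver-secreted proteins 6 were lower and 0 higher (limma, 7 and 0 unadjusted), with a median of -0.44; albumin (Alb) lay between -3.00 and -0.14 (median -1.75), mean -1.77 ± 0.47, adjusted p = 0.0035, with the NOD signal well above background on 4 arrays. Of 27 adipocyte genes 5 were lower and 2 higher (median -0.25), against 19.4% lower and 15.1% higher over all genes tested. Without replicate 5, where the list's mean was -1.61, 3 were lower and the median was 0.024. Lipoprotein lipase (Lpl) lay between -2.63 and -0.53 (median -1.71), mean -1.72 ± 0.28, adjusted p = 1.3e-05, while the transcription factor Cebpa lay between 0.59 and 2.08 (median 1.26), mean 1.27 ± 0.25, adjusted p = 0.00011. Of 13 mast cell genes the histamine-forming enzyme Hdc (-1.58) was lower and the receptor Kit (0.59) higher (median -0.03), and the proteases Mcpt4 (0.45) and Cpa3 (0.52) were not called.

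Metallothionein 2 (Mt2), a metal-binding stress protein, was among the genes with the lowest measured ratios and lay between -6.65 and -3.29 (median -4.88), mean -4.85 ± 0.57, adjusted p = 5.2e-08. It was below -3 on every array, with its lowest value on replicate 1 and its highest on replicate 5. The other lowest measured genes, the serpin Serpini2 (-4.96), the glutaminase Gls2 (-4.41), the orphan receptor Gprc5d (-4.73), Harbi1 (-4.62) and the unnamed 4921534H16Rik (-5.05), each had their lowest value on replicate 1 or 4 and their highest on replicate 5. The tissue kallikrein Klk1b3, the thiol isomerase Pdia2 and Klk1b26 had some of the largest spreads over the arrays among measured genes. They lay at -7.61, -6.89 and -7.00 on replicate 1 and at -0.04, 0.36 and 0.14 on replicate 5.

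Genes of cell division were lower in the NOD node. Of 53 members 31 were called lower and 2 higher, with a median of -0.60. The activator of the anaphase-promoting complex Cdc20 lay between -2.17 and -1.49 (median -1.66), mean -1.78 ± 0.18, adjusted p = 2.3e-09. The centromere motor Cenpe lay between -2.41 and -1.53 (median -1.66), mean -1.85 ± 0.23, adjusted p = 1.3e-07. The cohesion factor Cdca5 lay between -2.06 and -1.08 (median -1.45), mean -1.54 ± 0.17, adjusted p = 1.3e-08. The proliferation marker Mki67 lay between -1.57 and -0.56 (median -1.11), mean -1.06 ± 0.24, adjusted p = 0.00078. These 4 were below 0 on all 6 arrays. The 2 higher members were the phosphatase Cdc25b, which lay between 0.94 and 1.29 (median 1.07) (mean 1.08 ± 0.13, adjusted p = 3e-08), and the kinase Melk (0.44). In the scanner fit of replicates 1 and 2, 12 were called lower, and in that of replicates 4 to 6 it was 28. At 12 weeks the median of this list was -0.54 and at 20 weeks 0.02.

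Of 49 respiratory chain genes 23 were called lower and 3 higher, with a median of -0.30 and array means between -0.42 and -0.30. The complex I subunit Ndufa1 lay between -1.57 and -1.22 (median -1.36), mean -1.39 ± 0.17, adjusted p = 7.7e-08. The ATP synthase subunit Atp5a1 lay between -1.27 and -0.58 (median -1.01), mean -1.0 ± 0.08, adjusted p = 3.8e-11, and the complex III subunit Uqcrc2 lay between -0.89 and -0.71 (median -0.84), mean -0.83 ± 0.10, adjusted p = 3e-08. The second probe of Atp5a1 had a mean of -0.32. The 3 higher members were Sdhc, Ndufv2 and Cox4i1 (0.70, 0.45 and 0.48). Cytosolic ribosomal protein genes split, 13 higher and 18 lower of 60 with a median of 0.01; with normexp and loess the split was 26 and 7, so no direction is given for this family. Rps7 lay between -1.39 and -0.92 (median -1.07), mean -1.11 ± 0.14, adjusted p = 1.5e-07, with the control saturated on 4 arrays.

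**Figure D3:**
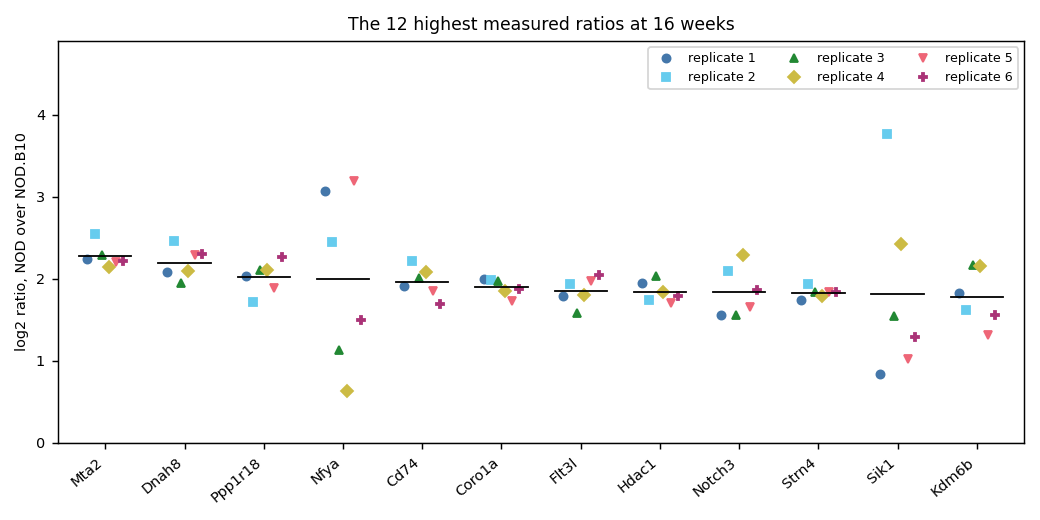
Log2 ratio (NOD over NOD.B10) on each of the 6 arrays for the 12 genes with the highest mean among measured genes of the same sign on every array; symbols are arrays and bars their means. Coro1a, Strn4 and Hdac1 lie within a narrow band on all arrays, while Nfya and Sik1 spread from 0.63 to 3.19 and from 0.84 to 3.76.

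The highest measured ratios were smaller than the lowest. Cd74, the invariant chain that escorts MHC class II molecules, lay between 1.70 and 2.22 (median 1.96), mean 1.96 ± 0.12, adjusted p = 2.3e-14. The actin regulator Coro1a lay between 1.73 and 1.99 (median 1.92), mean 1.90 ± 0.12, adjusted p = 1.5e-13; its second probe had a mean of 1.78. The growth factor Flt3l, which supports dendritic cells, lay between 1.58 and 2.04 (median 1.87), mean 1.85 ± 0.09, adjusted p = 2.6e-16, and at its second probe had a mean of 0.85. The histone deacetylase Hdac1 lay between 1.70 and 2.04 (median 1.81), mean 1.84 ± 0.10, adjusted p = 2.5e-15, and the histone demethylase Kdm6b lay between 1.31 and 2.17 (median 1.72), mean 1.77 ± 0.13, adjusted p = 4.2e-12. Strn4 lay between 1.74 and 1.94 (median 1.84), mean 1.83 ± 0.10, adjusted p = 1.1e-15. All of them were above 1.3 on every array, and the arrays of a gene differed by less than 0.9.

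Of the 12 highest measured genes 5 lay on chromosome 17, which also holds the MHC: the dynein Dnah8, the phosphatase subunit Ppp1r18, the CCAAT-binding factor Nfya, the receptor Notch3 and the kinase Sik1. Of all genes tested with a known chromosome 920 of 19337 (4.76%) lie there, of those higher past both limits 36 of 486 (7.41%) and of those lower 41 of 1146 (3.58%). Dnah8 lay between 1.95 and 2.46 (median 2.19), mean 2.19 ± 0.12, adjusted p = 3.9e-15. Ppp1r18 lay between 1.72 and 2.27 (median 2.07), mean 2.02 ± 0.10, adjusted p = 1.1e-15. Notch3 lay between 1.55 and 2.29 (median 1.76), mean 1.83 ± 0.16, adjusted p = 7.4e-11. Nfya lay between 0.63 and 3.19 (median 1.97) (mean 1.99 ± 0.36, adjusted p = 4.5e-05) and reached this level at 1 of its probes; the dimmer probe had a mean of -0.29. The chromatin gene Mta2 had the highest mean of all and lay between 2.14 and 2.54 (median 2.23), mean 2.27 ± 0.13, adjusted p = 5.1e-15, but its other 2 probes had means of -0.72 and 0.28 and neither was called, so its value rests on 1 probe. Bounds on the higher side were small: the Wnt receptor Fzd10 was at least 2.77-fold higher, the Notch coactivator Maml2 at least 2.73-fold and the kinase Map2k7 at least 2.55-fold, with the control signal well above background on none of the 6 arrays (adjusted p = 1.6e-07, 3.3e-07 and 6.5e-07).

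T cell genes were mostly higher by modest amounts: 17 of 29 called higher and 3 lower, with a median of 0.41 and array means between 0.17 and 0.46. Of the 29 genes 25 were measured genes, and of all 10195 measured genes 2945 were called higher and 2841 lower. The coreceptor chain Cd8b1 lay between 0.32 and 1.37 (median 1.18), mean 1.07 ± 0.16, adjusted p = 1.5e-06, with replicate 2 well below the other 5 arrays. The signalling adaptor Lat lay between 0.68 and 1.15 (median 0.95), mean 0.95 ± 0.09, adjusted p = 1.2e-09. The receptor Cd96 lay between 0.64 and 1.24 (median 0.75), mean 0.84 ± 0.12, adjusted p = 1.3e-06. The 3 lower members were the interleukin 7 receptor Il7r, which lay between -1.18 and -0.30 (median -0.88) (mean -0.82 ± 0.12, adjusted p = 3.2e-06), the adaptor Trat1 (-0.40) and Cd3e. For Cd3e the probes disagreed: the brightest lay between -1.61 and -0.22 (median -1.29) (mean -1.06 ± 0.19, adjusted p = 3.2e-05), and the other had a mean of 0.89, so no direction is given. In the scanner fit of replicates 4 to 6, 4 T cell genes were called higher, and in that of replicates 1 and 2 it was 14.

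Regulatory T cell genes showed no common shift (1 of 18 higher, Itgae, and 5 lower, median -0.09). The ectonucleotidase Entpd1 lay between -1.05 and -0.30 (median -0.72), mean -0.74 ± 0.11, adjusted p = 4.4e-06, and the chemokine receptor Ccr4 lay between -2.53 and -0.48 (median -1.11), mean -1.24 ± 0.26, adjusted p = 0.00023. The lineage factor Foxp3 lay between -0.32 and 0.89 (median 0.64), mean 0.47 ± 0.22, adjusted p = 0.094, and was well above background in NOD on 5 arrays; the checkpoint receptor Ctla4 lay between -0.37 and 1.20 (median 0.13), mean 0.24 ± 0.19, adjusted p = 0.35. Ikzf2 was called lower at its brightest probe (-0.72) and had a mean of 0.85 at another. Of 25 activation and cytokine genes 6 were higher and 3 lower (Il4, Cd69 and Havcr2), with a median of -0.24. The adhesion receptor Cd44 lay between 1.0 and 1.51 (median 1.16) (mean 1.22 ± 0.10, adjusted p = 7.6e-11), although its other probes, with means of 0.27 and 0.25, were not called. Interleukin 4 (Il4) lay between -1.22 and -0.46 (median -0.81), mean -0.82 ± 0.14, adjusted p = 2.4e-05. Interleukin 2 (Il2) lay between 0.02 and 1.22 (median 0.75) (mean 0.65 ± 0.24, adjusted p = 0.031) but was well above background in NOD on 3 arrays and in the control on none. Interferon gamma (Ifng) lay between -1.98 and 0.21 (median -0.03), mean -0.36 ± 0.21, adjusted p = 0.21, with replicate 5 far below the other arrays; its second probe had a mean of 0.70. Of 21 cytotoxic and NK cell genes 3 were higher (Nkg7, Cd160 and Ctsw) and 3 lower (Prf1, Fasl and Klrk1), with a median of 0.12. These counts are near the shares over all genes tested, 15.1% higher and 19.4% lower. The pore-forming Prf1 lay between -1.18 and -0.08 (median -0.94), mean -0.83 ± 0.19, adjusted p = 0.00062.

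B cell genes were higher in 13 of 27 cases and lower in 4, with a median of 0.30. Of the 27 genes 23 were measured genes, and of all 10195 measured genes 2945 were called higher and 2841 lower. The B cell receptor subunit Cd79b lay between 1.11 and 1.73 (median 1.44), mean 1.41 ± 0.10, adjusted p = 2e-12. The receptor kinase Btk lay between 1.27 and 2.17 (median 1.87), mean 1.77 ± 0.21, adjusted p = 3e-08. The IgM Fc receptor Fcmr lay between 0.74 and 0.98 (median 0.92), mean 0.88 ± 0.11, adjusted p = 8.3e-08. These 3 were above 0.7 on all 6 arrays. The 4 lower members were Tnfrsf13c, Vpreb3, Pou2af1 and Ms4a1 (-0.55, -0.40, -0.29 and -0.31). For Ms4a1 (CD20) the other probe had a mean of 0.55, so its direction differs between probes. Of 21 germinal centre and plasma cell genes 3 were higher (Fas, Mzb1 and Sdc1) and 4 lower, with a median of 0.13. These counts are near the shares over all genes tested, 15.1% higher and 19.4% lower. The lower ones were the secretory pathway genes Derl3, Fkbp11 and Creld2 and the regulator Rgs13. Fkbp11 lay between -3.00 and 0.03 (median -2.48), mean -2.12 ± 0.43, adjusted p = 0.00019, and Derl3 lay between -2.66 and -0.67 (median -2.02), mean -1.85 ± 0.33, adjusted p = 4e-05. Both were nearest to 0 on replicate 5, as the acinar genes were, whereas Creld2 lay between -1.28 and -0.80 (median -1.05) (mean -1.03 ± 0.12, adjusted p = 1.6e-08); whether acinar RNA takes part in these ratios was not tested.

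Among myeloid genes 8 of 23 dendritic cell genes were higher and 2 lower (median 0.34), and 8 of 24 macrophage and monocyte genes higher and 3 lower (median 0.20). Most members were measured genes (16 and 21), and of all 10195 measured genes 2945 were called higher and 2841 lower. The NF-kB subunit Relb lay between 1.02 and 1.32 (median 1.18), mean 1.18 ± 0.11, adjusted p = 3.1e-10. The transcription factor Irf8 lay between 0.65 and 0.89 (median 0.77), mean 0.77 ± 0.10, adjusted p = 2.8e-07. The complement subunit C1qa lay between 1.02 and 1.54 (median 1.33), mean 1.33 ± 0.19, adjusted p = 8.8e-07. The lower members were the lectin Clec10a and the chemokine Ccl17 (-0.59 and -0.96), and the scavenger receptor Cd163, Adgre1 (F4/80) and Fcgr1 (-1.18, -0.82 and -0.71). The mean of the dendritic cell list was 0.68 on replicate 2 and between 0.08 and 0.27 on the other arrays. Leaving out 1 array at a time gave 4 to 7 dendritic cell genes higher.

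Of 26 genes of fibroblastic reticular and follicular dendritic cells 13 were higher and 0 lower (limma, 14 and 1 at an unadjusted p under 0.05, median 0.49). Collagen VI (Col6a1) lay between 1.16 and 3.98 (median 1.65), mean 2.02 ± 0.24, adjusted p = 3.1e-08, with the control well above background on 2 arrays and replicate 2 far above the rest. The pericyte receptor Pdgfrb lay between 0.80 and 1.60 (median 1.42), mean 1.28 ± 0.17, adjusted p = 3.1e-07. The intermediate filament gene desmin (Des) lay between 0.81 and 3.31 (median 1.52) on 5 arrays, the flagged spot of replicate 2 being left out (mean 1.65 ± 0.22, adjusted p = 2.7e-07). Of 22 genes of blood endothelium and high endothelial venules 11 were higher and 2 lower, Pecam1 and Kdr (-0.39 and -0.40), with a median of 0.43. The adhesion molecule Icam2 lay between 0.96 and 1.38 (median 1.21), mean 1.19 ± 0.11, adjusted p = 2.1e-10, and the tight junction gene Cldn5 lay between 0.56 and 1.64 (median 1.21), mean 1.18 ± 0.14, adjusted p = 3.7e-08. Glycam1, a ligand for lymphocyte homing, lay between 0.57 and 0.92 (median 0.76), mean 0.76 ± 0.17, adjusted p = 0.00051. Of 13 lymphatic endothelium genes Madcam1, Prox1 and Marco were higher (0.84, 0.56 and 0.56) and Fgl2 lower (-0.72), with a median of 0.12. Prox1 had a mean of -0.058 within replicates 1 and 2.

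The strains differ by design at the MHC, where a ratio can reflect the sequence under a probe as well as the amount of RNA, and these cannot be told apart here. Of 16 class II genes 7 were called higher in NOD and 3 lower, with a median of 0.20. The peptide exchange gene H2-DMb2 lay between 1.27 and 1.66 (median 1.5), mean 1.5 ± 0.13, adjusted p = 7.3e-11. The class II beta chain H2-Ab1 lay between 0.60 and 1.15 (median 0.73), mean 0.79 ± 0.11, adjusted p = 5.5e-07. The chain H2-Eb1 lay between 0.60 and 1.19 (median 0.92), mean 0.89 ± 0.16, adjusted p = 4.5e-05, and the class II transactivator Ciita, which lies outside the MHC, lay between 0.53 and 1.42 (median 0.80), mean 0.87 ± 0.16, adjusted p = 7.9e-05. These 4 and Cd74, the highest of the list, were above 0.5 on all 6 arrays. For the alpha chain H2-Aa the probes disagreed: the brightest lay between 0.68 and 1.34 (median 0.98) (mean 1.02 ± 0.21, adjusted p = 0.00021), and the other had a mean of -2.06 and was below -1 on all 6 arrays. The lower members were the protease cathepsin S (Ctss), which lay between -0.75 and -0.66 (median -0.72) (mean -0.71 ± 0.10, adjusted p = 6.4e-07), H2-DMb1 (-0.85) and H2-Ob (-0.53).

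Class II promoters share a Y box, whose core TGATTGG is bound by the NF-Y complex that contains Nfya. The 100 bases before the start are shown for 3 class II genes whose brightest probes were higher, from RefSeq build GRCm38.p6, a C57BL/6 genome, which carries H2b as the control does and not the NOD haplotype. Capitals mark the core.
H2-Aa: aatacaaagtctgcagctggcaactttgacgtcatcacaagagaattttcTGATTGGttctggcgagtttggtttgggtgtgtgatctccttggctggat
H2-Eb1: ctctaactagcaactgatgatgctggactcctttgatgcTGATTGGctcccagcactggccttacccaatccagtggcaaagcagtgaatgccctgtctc
H2-DMb2: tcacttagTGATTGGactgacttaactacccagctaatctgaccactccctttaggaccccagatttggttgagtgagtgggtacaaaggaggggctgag
They lie at chr17:34287824-34287923 on the minus strand, chr17:34305767-34305866 on the plus strand and chr17:34145149-34145248 on the plus strand. TGATTGG or its reverse complement CCAATCA stood in the 250 bases before the start of 7 of the 11 class II genes with a promoter in the table (63.6%), against 7.23% of all promoters. As for the acinar list, a gene counted if any of its promoters held the motif, and the share of all promoters is per promoter.

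**Figure D4:**
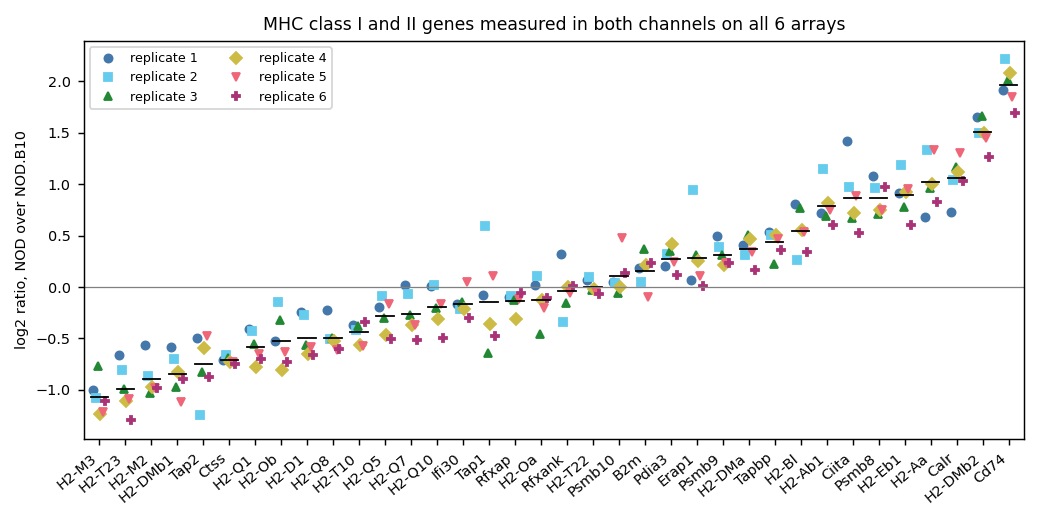
Log2 ratio (NOD over NOD.B10) on each of the 6 arrays for the MHC class I and class II genes measured in both channels on all 6 arrays, ordered by their mean; symbols are arrays and bars their means. H2-M3, H2-T23 and H2-M2 lie below 0 on every array and H2-DMb2 and Cd74 above 1.2 on every array.

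Class I genes were divided, 9 lower and 6 higher of 28, with a median of -0.16. The non-classical genes H2-M3, which presents formylated peptides, lay between -1.24 and -0.77 (median -1.09), mean -1.07 ± 0.11, adjusted p = 4.7e-09. H2-T23 (Qa-1) lay between -1.30 and -0.66 (median -1.04), mean -0.99 ± 0.11, adjusted p = 2.2e-08. H2-M2 lay between -1.03 and -0.56 (median -0.97), mean -0.90 ± 0.11, adjusted p = 4e-08. All 3 were below -0.5 on every array, but the second probe of H2-M3 had a mean of 0.54. The classical chain H2-D1 lay between -0.66 and -0.24 (median -0.57) (mean -0.49 ± 0.12, adjusted p = 0.0013), and H2-K1 lay between -0.43 and -0.25 (median -0.33) on 5 arrays (mean -0.34 ± 0.20, adjusted p = 0.21). On the higher side the chaperone calreticulin (Calr) lay between 0.73 and 1.30 (median 1.08), mean 1.06 ± 0.11, adjusted p = 5.4e-09, and the immunoproteasome subunit Psmb8 lay between 0.71 and 1.08 (median 0.86), mean 0.87 ± 0.13, adjusted p = 2.3e-06. H2-T3 lay between 1.04 and 2.19 (median 1.29) on 5 arrays (mean 1.44 ± 0.22, adjusted p = 3.6e-06), with the control well above background on 1 array.

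Of 52 other genes of the MHC region 19 were higher and 7 lower (median 0.18). D17H6S56E-5 lay between -4.68 and -3.52 (median -4.37), mean -4.22 ± 0.19, adjusted p = 1.2e-16, and its second probe had a mean of -4.78, below -4 on every array. The level in the control channel was 12.28 ± 0.39 (SD) and in the NOD channel 8.05 ± 0.22, and the ratios at 12 and 20 weeks were -4.24 and -4.07, so this gene was apart by about the same amount at all 3 ages. The endothelial receptor Notch4 lay between 1.36 and 1.59 (median 1.48), mean 1.47 ± 0.13, adjusted p = 1.7e-10. The chaperone Bag6 lay between 1.01 and 1.24 (median 1.14), mean 1.14 ± 0.08, adjusted p = 1.7e-12, and the helicase Ddx39b lay between 0.90 and 1.24 (median 1.09), mean 1.08 ± 0.10, adjusted p = 4.2e-10.

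Interferon genes were called in both directions, with more called higher than lower on either list. Of 33 type I interferon response genes 12 were higher and 5 lower (median 0.08), and of 30 interferon gamma response genes 14 were higher and 3 lower (median 0.29). Most members were measured genes (20 and 25), and of all 10195 measured genes 2945 were called higher and 2841 lower. The antiviral gene Rsad2 lay between -2.34 and -0.53 (median -1.91), mean -1.65 ± 0.27, adjusted p = 7.4e-06, and the exonuclease Isg20 lay between -1.85 and -0.94 (median -1.48), mean -1.46 ± 0.19, adjusted p = 3.5e-07. The guanylate-binding protein Gbp5 lay between -1.91 and -0.82 (median -1.63), mean -1.52 ± 0.20, adjusted p = 4.4e-07, whereas its relative Gbp4 lay between 0.55 and 1.27 (median 1.09), mean 1.04 ± 0.13, adjusted p = 2e-07. The checkpoint ligand Cd274 (PD-L1) lay between 0.60 and 1.28 (median 0.81), mean 0.86 ± 0.11, adjusted p = 1.4e-07. Rsad2, Isg20 and Gbp5 were below 0 and Gbp4 and Cd274 above 0 on all 6 arrays.

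Of 29 NF-kB and TNF superfamily genes 16 were higher and 3 lower (Tnfrsf1b, Nfkb1 and Vcam1), with a median of 0.31. Of the 29 genes 22 were measured genes, and of all 10195 measured genes 2945 were called higher and 2841 lower. The TNF receptor Tnfrsf1a lay between 0.45 and 1.04 (median 0.98), mean 0.89 ± 0.09, adjusted p = 6.8e-10. Lymphotoxin alpha (Lta) lay between 0.99 and 1.42 (median 1.20) on 5 arrays (mean 1.18 ± 0.15, adjusted p = 1.2e-07), and the adhesion molecule Icam1 lay between 0.70 and 0.87 (median 0.82), mean 0.80 ± 0.11, adjusted p = 1e-06. The non-canonical subunit Nfkb2 lay between 0.68 and 0.95 (median 0.77) (mean 0.80 ± 0.12, adjusted p = 1.8e-06), while the canonical subunit gene Nfkb1 lay between -1.04 and -0.31 (median -0.78) (mean -0.72 ± 0.12, adjusted p = 9.2e-06). Immediate early genes, which respond within minutes to stimulation and to tissue handling, were higher in 13 of 29 cases and lower in 1, Btg2 (-0.59), with a median of 0.28. Ier5 lay between 1.34 and 1.87 (median 1.62), mean 1.61 ± 0.14, adjusted p = 1.6e-10, and Myc lay between 1.08 and 1.61 (median 1.18), mean 1.26 ± 0.15, adjusted p = 6e-08. Zfp36, which destabilises cytokine mRNA, lay between 0.83 and 1.51 (median 1.18), mean 1.17 ± 0.11, adjusted p = 4.2e-10. The mean of this list was 0.93 on replicate 4 and between 0.12 and 0.52 on the other arrays. Of 46 chemokine and receptor genes 7 were higher and 8 lower (median 0.17), near the shares over all genes tested (15.1% and 19.4%). Ccl2 lay between 1.37 and 2.28 (median 1.47) on 5 arrays (mean 1.64 ± 0.25, adjusted p = 3.9e-06).

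Stress, clock and apoptosis genes were called in both directions. Of 25 unfolded protein response genes 10 were lower and 5 higher (median -0.26). The list's mean was 0.02 on replicate 5 and between -0.45 and -0.23 on the other arrays. Of the 24 genes with 6 values 15 (62.5%) were highest on replicate 5, against 12.6% of all genes. Whether acinar RNA takes part in these ratios was not tested. The cochaperone Dnajc3 lay between -1.41 and -0.68 (median -1.26) (mean -1.20 ± 0.16, adjusted p = 3.1e-07). The isomerase Pdia4 lay between 0.78 and 1.45 (median 1.22) (mean 1.14 ± 0.16, adjusted p = 7.8e-07). Of 20 heat shock genes 7 were lower and 6 higher (median -0.02), Hspa4l at -1.34 and Hsf1 at 0.58 among them. Of 20 clock genes 5 were higher and 3 lower (median 0.03); the output gene Dbp lay between 0.41 and 1.82 (median 0.99) (mean 1.03 ± 0.19, adjusted p = 3.6e-05) and the kinase Csnk1d lay between -1.28 and -0.99 (median -1.14) (mean -1.14 ± 0.10, adjusted p = 2.4e-10). Of 29 apoptosis genes 6 were higher and 4 lower (median 0.08); the survival factor Mcl1 lay between 1.14 and 1.35 (median 1.22) on 5 arrays (mean 1.24 ± 0.15, adjusted p = 7.7e-08).

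Genes tied to self tolerance and diabetes risk gave single values in both directions. Aire, the regulator of tissue antigens, lay between 0.36 and 1.20 (median 0.74), mean 0.79 ± 0.15, adjusted p = 7.9e-05, above 0 on all 6 arrays. Of 17 genes on the list of Aire, Deaf1 and their partners 4 were higher (Relb, Map3k14, Nfkb2 and Aire) and 2 lower, with a median of 0.24. The lower ones were Lmo4 and Deaf1, the latter at its brightest probe only, so no direction is given for Deaf1. The Deaf1 partner Lmo4 lay between -0.76 and -0.38 (median -0.62), mean -0.59 ± 0.08, adjusted p = 2.4e-07. Of 29 susceptibility genes outside the MHC 6 were higher and 6 lower (median 0.12). The phosphatase Ptpn22 lay between -2.46 and -1.33 (median -1.92), mean -1.94 ± 0.14, adjusted p = 3.3e-12. The repressor Bach2 lay between 0.60 and 1.29 (median 0.96), mean 0.93 ± 0.13, adjusted p = 7e-07, and the receptor Tlr1 lay between 0.88 and 1.25 (median 0.95), mean 1.02 ± 0.12, adjusted p = 2.1e-08. Ptpn22 was below -1.3 on every array at 16 weeks, against a mean of 0.25 at 12 weeks and -0.92 at 20 weeks. Its NOD channel read 13.89 at 12 weeks, 12.58 at 16 weeks and 13.56 at 20 weeks. The control channel read 13.64, 14.52 and 14.49, so both channels differed between 12 and 16 weeks.

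Between 12 and 16 weeks the ratio of 2651 genes (9.36%) was called higher at 16 weeks and that of 2020 (7.13%) lower, and the groups did not overlap for 1499 genes (5.29%). Of the oxidative phosphorylation and ribosomal genes 25 of 49 and 25 of 60 were higher at 16 weeks, with median differences of 0.53 and 0.41 against 0.02 over all genes. Of 27 B cell genes 11 were higher and 3 lower, and of 16 class II genes 8 and 1. Of the 34 acinar genes 0 were called (limma, also 0 at an unadjusted p under 0.05), with a median difference of 0.98 and a wide spread between arrays at both ages. The actin-binding Tmsb10 differed by 2.77 ± 0.34 (adjusted p = 7.4e-07), from a mean of -1.12 ± 1.24 (SD) at 12 weeks to 1.65. The lectin Lgals1 differed by 2.21 ± 0.29 (adjusted p = 1.5e-06) and the myeloid adaptor Tyrobp by 2.16 ± 0.28 (adjusted p = 1.4e-06). On the other side the receptor P2ry10 differed by -2.28 ± 0.27 (adjusted p = 2.7e-07), the splicing factor Tra2b by -1.96 ± 0.20 (adjusted p = 3.3e-08) and the adhesion protein Mpzl2 by -1.98 ± 0.35 (adjusted p = 9.9e-05). For Tra2b the NOD channel fell by 1.94 and the control channel differed by 0.02, whereas for Mpzl2 the NOD channel fell by 0.59 and the control channel was 1.39 higher. Both ages shared 3 scanners. Within the scanner with 3 arrays of each age limma called 0 genes (2803 at an unadjusted p under 0.05), within the one with 2 arrays at 12 weeks and 1 at 16 weeks 0 (3637 unadjusted), and within the one with 1 and 2 arrays 2902.

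Between 16 and 20 weeks 1418 genes (5.0%) were higher at 16 weeks and 1053 (3.72%) lower, and the groups did not overlap for 2010 (7.09%). Among blood cell genes 19 of 20 erythroid and 12 of 19 neutrophil genes were lower at 16 weeks, with median differences of -2.60 and -1.80 against 0.05 over all genes. Camp differed by -4.16 ± 0.60 (adjusted p = 9.4e-05), S100a8 by -3.92 ± 0.59 (adjusted p = 0.00013), Chil3 by -3.79 ± 0.61 (adjusted p = 0.0002) and the erythroid genes Trim10 by -3.51 ± 0.49 (adjusted p = 6e-05) and Eraf by -3.48 ± 0.68 (adjusted p = 0.0013). Of 34 islet genes 11 were lower, of 53 cell cycle genes 16 lower and of 34 acinar genes 5 lower. Higher at 16 weeks were 11 of 29 T cell genes, 11 of 26 fibroblastic reticular genes, 12 of 28 class I genes and 9 of 22 blood endothelium genes. Glycam1 differed by 1.63 ± 0.25 (adjusted p = 0.00015), the transcription factor Ebf3 by 1.65 ± 0.32 (adjusted p = 0.0013) and the homeobox gene Meox1 by 1.60 ± 0.22 (adjusted p = 4.6e-05). Within the scanner that read 3 arrays at 16 weeks and 1 at 20 weeks 15 genes were called, and within the one that read 2 and 4 arrays 3448.

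Both channels took part in these differences. The mean log2 signal of the acinar genes in the NOD channel was 12.69 ± 2.0 (SD) at 12 weeks, 13.77 ± 2.06 at 16 weeks and 16.79 ± 0.95 at 20 weeks, and in the control channel 17.22 ± 0.27, 17.49 ± 0.33 and 16.58 ± 0.21. For the islet genes the NOD channel held 7.81 ± 0.35, 7.71 ± 0.23 and 8.24 ± 0.29, and the control channel 9.08 ± 0.07, 9.23 ± 0.13 and 8.41 ± 0.07. The control channel of Ins2 read 15.41 ± 0.63 at 12 weeks, 15.86 ± 0.22 at 16 weeks and 12.90 ± 0.37 at 20 weeks, and that of Gcg 13.36 ± 0.19, 13.61 ± 0.21 and 10.50 ± 0.23. The control channel thus read higher for Ins2 and Gcg on the 16-week arrays than on the 20-week arrays, and the part that a different control plays in a difference between ages was not tested. For the erythroid genes the NOD channel rose from 9.76 ± 0.60 at 16 weeks to 11.78 ± 0.94 at 20 weeks, while the control channel went from 11.35 ± 0.20 to 10.73 ± 0.07.

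**Figure D5:**
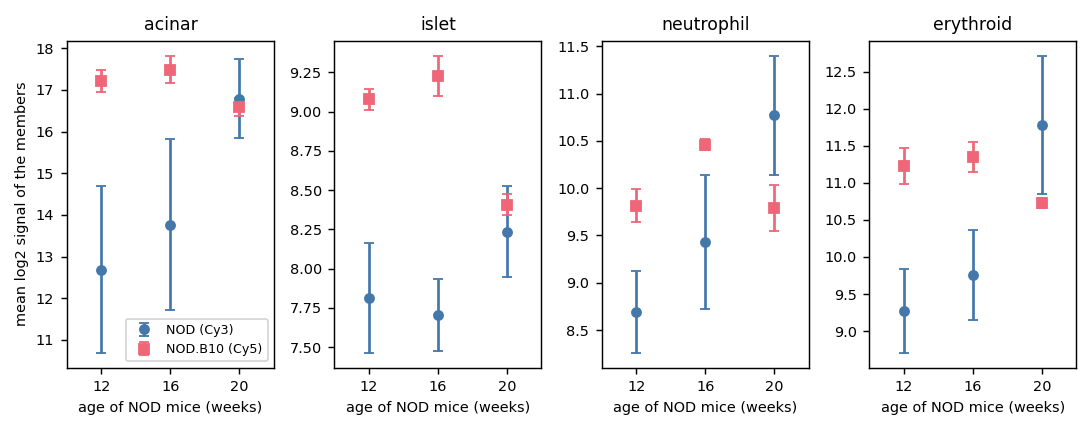
Mean log2 signal of the acinar, islet, neutrophil and erythroid genes in the NOD (Cy3) and NOD.B10 (Cy5) channels at 12, 16 and 20 weeks; points are means over 7, 6 and 5 arrays and bars the SD between arrays, and the vertical axes differ between panels and do not start at 0. At 16 weeks the control lies above NOD in all 4 panels, and at 20 weeks the NOD signal of the neutrophil and erythroid genes lies above the control.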

How the data were processed

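RNA of pancreatic lymph nodes was hybridised to Agilent mouse arrays in 2 colours, per the labels. The deposited scanner files hold spot intensity values that the authors' Agilent Feature Extraction software (version 8.5, per the submitters' processing notes; an earlier version on 11 of the 35 arrays, none at 16 weeks, per the file headers) had background-subtracted and dye-normalised, per the file headers. The deposited value table states no scale or direction; checked spot by spot, its values are the authors' log10 ratios of each scanner file with the sign turned (to within 5e-10), so NOD over NOD.B10, with medians between -0.0121 and 0.000591 at 16 weeks. It was used as an alternative. The log2 ratio was taken from the processed intensities, Cy3 (NOD) over Cy5 (NOD.B10).

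Control spots and outlier-flagged spots were left out and spots of a probe averaged. Probes were kept if 1 of the channels was well above background on 4 or more arrays of the study (40833 of 41174), and the brightest probe stood for its gene. Names came from RefSeq by accession (22303 probes), symbol (5045) or synonym (4363); 9463 had none. Group means of all 35 arrays were fitted with lmFit and eBayes (limma 3.58.1, R 4.3.3), with p-values adjusted by Benjamini-Hochberg over all genes. Channel signals are log2 values after Aquantile normalisation. The procedure was tested on simulated data. The precision of a mean is limited by the number of arrays.

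Genes named were the highest and lowest measured ratios and bounds, up to 4 genes a list by adjusted p, the largest differences between ages, the largest spreads and a fixed set; others, including all members behind counts of 5 or fewer, were chosen after their values were seen. Of the fixed set, Ccl21a was not analysed here and some genes are not reported here. The part of the study, the lists and the named set were chosen with earlier results of these data known. Replicate numbers were checked as a pairing: 1 of 6 same-numbered pairs with 12 weeks and 1 of 5 with 20 weeks correlated above 0.1, so they were not taken as pairs. Promoter sequences came from RefSeq (GRCm38.p6). The alternatives were other background corrections, filters, centring, probe rules, blocks and the omission of each array. Fits within a scanner were added after the data were seen and took their spread from all arrays of that scanner, at every age.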

Additional observations from a re-analysis of the deposited data

Results flagged for a closer look

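An array was set apart from the other arrays of the group by Dixon's test in 23 of 243 gene and list values examined; chance alone gives about 1 in 20. Replicate 5 was the array apart for Ins2 (-2.04), Ins1 (-1.47), Harbi1 (-1.51), Bhlha15 (-0.56), Fkbp11 (0.033), Dnajc3 (-0.68), Hba-a1 (0.84) and the epithelial and duct list (-0.23), each time above the other arrays. It was also apart for the B cell gene Tnfrsf13c (-1.10, below), for Gbp4 (0.55, below) and for Ifng (-1.98, below). Replicate 2 was apart for Mta2 (2.54), Map2k7 (3.80), Col6a1 (3.98) and the dendritic cell list (0.68), all above, and for Cd8b1 (0.32, below). Replicate 1 was apart for Cel (-7.29), Mpzl2 (-3.40) and Tnfrsf1a (0.45), all below, and for H2-M2 (-0.56, above). Replicate 6 was apart for Clec10a (0.33) and the liver list (-0.10), both above, and replicate 4 for Ccl2 (2.28, above). Between ages, the test of the difference itself called 4671 genes between 16 and 12 weeks and 2471 between 16 and 20 weeks.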

How the results depend on the processing

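The counts past both limits were 135 higher and 380 lower with normexp and loess, 400 and 723 (3190 lower at any size) over genes with both channels well above background on all 6 arrays, where fewer genes were tested, and 2405 and 3715 at a 1.5-fold limit. With a block for the software version 3361 genes were lower at any size. Fits to only the ages compared gave 2779 genes between 16 and 12 weeks and 1265 between 16 and 20 weeks, from fewer arrays. Within 1 scanner (replicates 4 to 6) 1142 genes were higher and 2040 lower at any size, and 0 and 15 changed between ages (2803 and 3941 unadjusted, limma). Within the scanner of replicates 1 and 2, 1176 were higher past both limits and 2902 changed between 16 and 12 weeks; within that of replicate 3, 0 did (3637 unadjusted). Leaving out 1 array gave 606 to 715 higher and 1346 to 1569 lower past both limits, 3787 to 4023 and 4786 to 5194 at any size, 4186 to 4370 between 16 and 12 weeks and 1847 to 2592 between 16 and 20 weeks. The other counts stayed within 1.5 times.

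With replicate number as a block 661 genes were higher and 1378 lower past both limits (4029 and 5063 at any size), and 4123 and 2054 changed between ages; the numbers do not pair the samples, and an array correlated best with its own number for 1 of 6 arrays at 12 weeks and 2 of 5 at 20 weeks. Averaging every probe turned the sign of Ikzf2 (0.087), Ier2 (-0.12), H2-Aa (-0.52) and Ms4a1 (0.12), whose probes differ. Prox1 was at -0.058 within replicates 1 and 2. The median ratio of 10 of 37 gene lists turned sign under some alternative. The germinal centre list was at -0.00078 with normexp and -0.030 over genes measured in both channels. The regulatory T cell list was at 0.015 with normexp, 0.038 within replicates 1 and 2 and 0.013 without replicate 5. The adipocyte list was at 0.024 without replicate 5, the type I interferon list at -0.0048 without replicate 4, the susceptibility list at -0.030 without replicate 2 and -0.013 with a scanner block, and the apoptosis list at -0.0018 within replicates 4 to 6. The heat shock, mast cell, clock and ribosomal lists, all within 0.03 of 0, turned under several alternatives, to between -0.067 and 0.19. With normexp 22 of the 37 medians were over 1.5 times closer to 0, and the cause was not tested. Saturated control spots and NOD signals near background limit the pancreatic genes.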
